A study of Mus musculus with 163 samples.

Results

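The prolactin receptor gene *Prlr* and the growth hormone receptor gene *Ghr* were followed in single neurons of the mouse mediobasal hypothalamus. They are 2 of the 12187 genes with values, and they were chosen by name, with their opposite levels in *Agrp*-rich and *Agrp*-poor cells already known. The neurons had been sorted for EGFP, a reporter that *Pomc* regulatory sequences drive in the strain C57/BL6 Tg(Pomc-EGFP)1Low, and RNA-seq was done on each cell. The mice were male, 7 to 9 weeks old and fed ad libitum, and the transgene is common to all cells, so there was no group without it. For the description the cells were split at 10 log2RPM of *Agrp*, the gene of the melanocortin antagonist, into 48 Agrp-high cells and the remaining Agrp-low cells, 97 with *Prlr* and 18 without. The labels tie no cell to an animal, a plate or a run. All cells therefore stand as 1 sample, SDs are spreads over cells, and no p-value was computed. The split and the 2 genes came from the same values that are described, so the differences between the classes are descriptions and not tests.

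Prolactin and growth hormone are related hormones of the anterior pituitary, and PRLR and GHR are class I cytokine receptors with no kinase of their own. Ligand binding activates the bound kinase JAK2, which phosphorylates STAT proteins, chiefly STAT5, and the STATs switch on target genes such as *Cish* and *Socs2* whose products dampen the signal. In the arcuate nucleus prolactin is best known for acting on dopamine neurons and kisspeptin neurons, and growth hormone for acting on AgRP and GHRH neurons.

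Both genes lie on mouse chromosome 15 (GRCm38). *Ghr* (ENSMUSG00000055737) spans 3317760 to 3583492 on the minus strand. *Prlr* (ENSMUSG00000005268) spans 10177238 to 10349180 on the plus strand in the GENCODE M21 annotation, but the locus given with the deposited values runs on to 10410153 and takes in the neighbours *Gm21973* and *Agxt2*. Each gene starts at several exons, with 10 start sites listed for *Prlr* and 9 for *Ghr*, and the values sum over them. RefSeq (GRCm38.p6) gives 3 start windows of 300 bases for *Prlr* and 2 for *Ghr*. They are shown because the 2 genes had opposite levels in the 2 classes, and 1 window of each is printed, 5′ to 3′ on the strand of the gene. The letters TTCNNNGAA, the core of STAT binding sites, read the same way on both strands. They were searched in every window and are in capitals where found.
Prlr, chr15:10223656-10223955, plus strand: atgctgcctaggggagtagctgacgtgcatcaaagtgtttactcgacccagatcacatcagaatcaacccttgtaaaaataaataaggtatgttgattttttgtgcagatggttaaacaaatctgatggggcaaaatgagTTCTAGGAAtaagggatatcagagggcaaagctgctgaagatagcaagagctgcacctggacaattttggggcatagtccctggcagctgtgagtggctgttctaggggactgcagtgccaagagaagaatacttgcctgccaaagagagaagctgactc
Ghr, chr15:3583303-3583602, minus strand: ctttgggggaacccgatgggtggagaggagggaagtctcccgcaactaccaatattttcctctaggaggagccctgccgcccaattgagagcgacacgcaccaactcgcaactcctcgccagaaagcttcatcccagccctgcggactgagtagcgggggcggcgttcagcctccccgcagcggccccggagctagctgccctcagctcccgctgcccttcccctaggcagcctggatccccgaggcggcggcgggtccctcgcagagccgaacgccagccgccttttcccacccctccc
The core was found once in the *Prlr* window shown and in none of the other 4 windows of the 2 genes. Of 32851 windows of all genes, 8.30% held it. The share of G and C was 67% in the *Ghr* window shown and 45.7% in the *Prlr* window shown. It was 52.3% in the other *Ghr* window and 49.3% and 35.3% in the other *Prlr* windows. A match of letters is no binding site, and nothing was measured at these windows.

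The 12187 genes held between 1.46 and 41.9 M reads in a cell (median 8.10 M). Expression meant 5 RPM or more, which is 36.5 reads in the median cell and 6.56 in the shallowest, and 0 reads are stored as -0.91 log2RPM. RPM is not divided by transcript length, so the level of *Prlr* is not compared with that of *Ghr*. The pan-neuronal genes *Snap25*, *Stmn2* and *Map2* were expressed in every cell, but 30 cells had under 6000 expressed genes, 2 of them Agrp-high and 28 Agrp-low. In 8 cells, 1 Agrp-high and 7 Agrp-low, there were 3 or more markers of macroglia, ventricular cells or pituitary at 100 RPM. Of the markers of vessels and of microglia, 0 of 6 each had values, so reads of such cells could not be counted. Values were present for 2 of 6 astrocyte and 3 of 8 pituitary markers.

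*Prlr* was found in fewer Agrp-high than Agrp-low cells and at lower levels. It was expressed in 17 of 48 Agrp-high cells (35.4%, Clopper-Pearson 95% interval 22.2% to 50.5%) and in 97 Agrp-low cells (84.3%, interval 76.4% to 90.4%). These intervals cover counting error only. In Agrp-high cells its level ran from -0.91 to 6.53 log2RPM with a median of 1.65. In Agrp-low cells it ran from -0.91 to 10.79 log2RPM with a median of 7.25 and a lower quartile of 3.73. The highest Agrp-high cell thus stood below the median Agrp-low cell, while the bottom of the 2 ranges overlapped. Mean levels were 2.01 ± 1.88 log2RPM in Agrp-high and 6.26 ± 2.90 log2RPM in Agrp-low cells, a difference of -4.25 that ranked 4 from the bottom among all genes. Of 11264 genes compared, 3.14% were lower by 1 or more in Agrp-high cells, and that share stands here as background only, since the split chose *Prlr*.

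The expressing cells of the 2 classes were not alike in level. At 100 RPM or more, a limit set after the values were seen, *Prlr* was found in 0 of 48 Agrp-high cells, which allows a share of up to 6.25% (3 counts of the total, the limit used here for every count of 0), and in 72 Agrp-low cells (62.6%). Among the expressing cells alone, the median was 3.56 log2RPM in 17 Agrp-high cells and 7.60 log2RPM in 97 Agrp-low cells. The Agrp-low cells fell into a large group near the upper levels and a tail: 72 had 100 RPM or more, 25 had 5 to 100 RPM and 18 had less than 5 RPM. Being below the cut-off seldom meant having no read: 2 of 31 Agrp-high cells and 3 of 18 Agrp-low cells below 5 RPM had no *Prlr* read, and the others had up to 44 and up to 46 reads.

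*Ghr* showed the reverse order. It was expressed in 48 of 48 Agrp-high cells (100%, interval 92.6% to 100%) and in 48 Agrp-low cells (41.7%, interval 32.6% to 51.3%). Its level ran from 5.02 to 8.62 log2RPM in Agrp-high cells, with a median of 7.52, and from -0.91 to 7.94 log2RPM in Agrp-low cells, with a median of 1.69. The Agrp-high cells formed a narrow band and the Agrp-low cells a wide one that reached into it. Mean levels were 7.40 ± 0.82 log2RPM in Agrp-high and 2.39 ± 2.56 log2RPM in Agrp-low cells, a difference of 5.02 that ranked 9 from the top. Of all genes compared, 9.22% were higher by 1 or more in Agrp-high cells. At 100 RPM *Ghr* was found in 41 Agrp-high cells (85.4%) and 10 Agrp-low cells (8.70%). Of the 67 Agrp-low cells below 5 RPM, 8 had no *Ghr* read and the most had 34 reads.

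**Figure D1:**
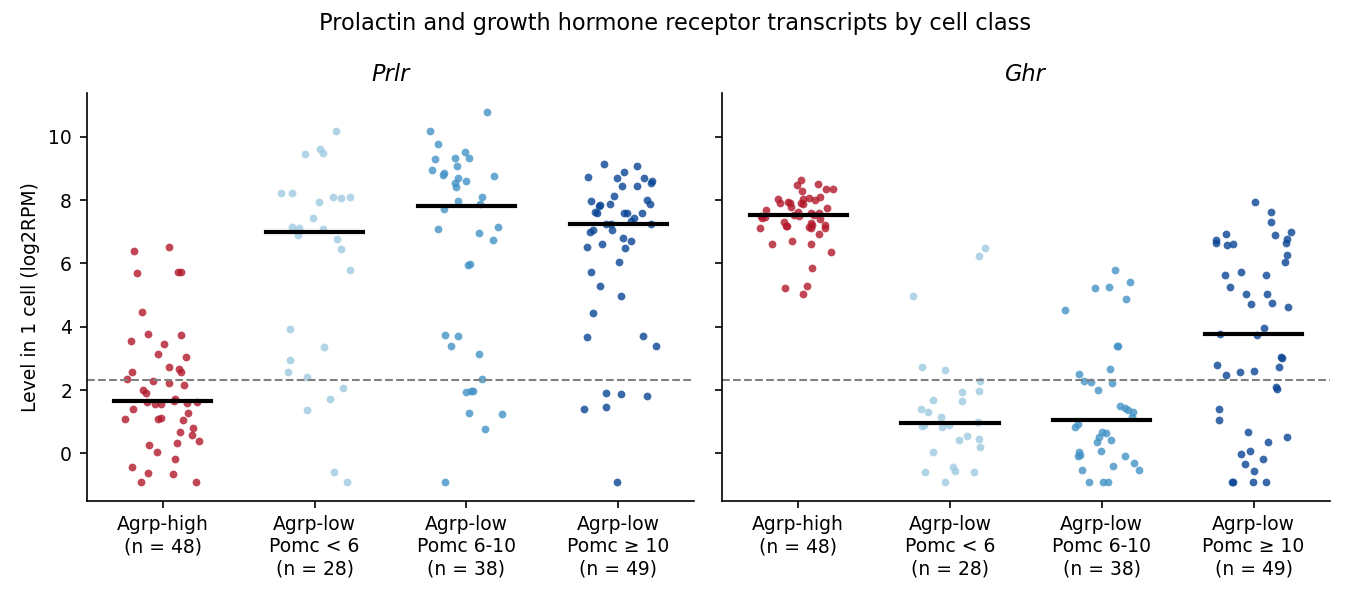
Level of *Prlr* (left) and *Ghr* (right) in log2RPM on the vertical axis, 1 point per cell, for the 48 Agrp-high cells and for the Agrp-low cells in 3 bins of *Pomc* (28, 38 and 49 cells). Black bars are medians and the dashed line is 5 RPM. *Ghr* in Agrp-high cells forms a band from 5.02 to 8.62 log2RPM, and *Prlr* in these cells stays at or below 6.53 log2RPM.

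The limits cut through few cells for *Agrp* and more for *Prlr*. The Agrp-low cell nearest the limit had *Agrp* at 9.99 log2RPM and resembled the other class, with *Prlr* at 1.25 and *Ghr* at 5.79 log2RPM. The next lower cell had *Agrp* at 7.15, *Prlr* at 7.09 and *Ghr* at 3.40 log2RPM. Just above the limit, *Agrp* was 10.12 log2RPM in a cell with *Prlr* at 6.53 and *Ghr* at 6.92, and 10.29 log2RPM in a cell with *Prlr* at 1.12 and *Ghr* at 7.11. That cell with *Agrp* at 10.12 log2RPM held the highest *Prlr* of the Agrp-high class. Around the 5 RPM cut-off, 24 cells lay within 1 log2 unit below and 12 within 1 unit above for *Prlr*, of which 13 and 7 were Agrp-high. For *Ghr* the numbers were 16 below and 11 above, all Agrp-low. The nearest *Prlr* values were 4.83 and 5.07 RPM, and the nearest *Ghr* values 4.85 and 5.57 RPM.

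Joint presence was common. Over all cells, 60 expressed both receptors, 54 *Prlr* only, 36 *Ghr* only and 13 neither. No Agrp-high cell lacked *Ghr*, so that class held 17 cells with both and 31 with *Ghr* only. The Agrp-low class held 43 cells with both (37.4%, interval 28.5% to 46.9%), 54 with *Prlr* only (46.96%, interval 37.6% to 56.5%), 5 with *Ghr* only and 13 with neither. The *Ghr*-only state was therefore found in 64.6% of Agrp-high and 4.35% of Agrp-low cells.

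Within the Agrp-low class 43 cells held both receptors. *Ghr* was expressed in 43 of 97 cells with *Prlr* (44.3%, interval 34.2% to 54.8%) and in 5 of 18 cells without it (27.8%, interval 9.69% to 53.5%). *Prlr* was expressed in 43 of 48 cells with *Ghr* (89.6%, interval 77.3% to 96.5%) and in 54 of 67 cells without it (80.6%, interval 69.1% to 89.2%). Both pairs of intervals overlapped. Spearman's rho between the 2 levels was -0.43 over all cells, 0.15 over Agrp-high cells and -0.07 over Agrp-low cells, as a description of cells that share a library type and differ in depth. Within the Agrp-low class it was -0.50 in the lowest *Pomc* bin (below 6 log2RPM), -0.15 in the middle bin (6 to 10) and 0.09 in the highest. In the lowest bin *Ghr* was expressed in 3 of 23 cells with *Prlr* and 2 of 5 without, so most values there were below 5 RPM. Such low *Ghr* values went with *Agrp*. The rho of *Ghr* with *Agrp* was 0.54 in that bin. It was 0.82 over the 67 Agrp-low cells without *Ghr* and -0.08 over the 48 with it. Whether the low *Ghr* values come from the same cells or from reads of other libraries was not tested. In Agrp-low cells with both receptors, median *Prlr* was 7.59 log2RPM, close to the 7.77 log2RPM of cells with *Prlr* only.

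**Figure D2:**
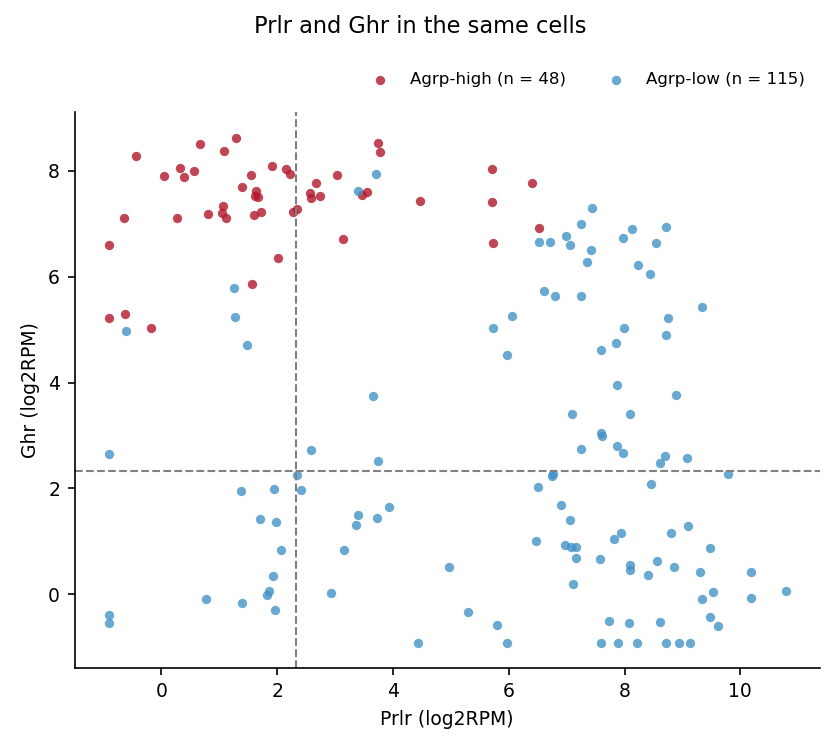
*Ghr* (vertical axis, log2RPM) against *Prlr* (horizontal axis, log2RPM), 1 point per cell, with Agrp-high and Agrp-low cells in different colours. Dashed lines mark 5 RPM. The lower right corner holds 54 Agrp-low cells with *Prlr* only, and no Agrp-high cell lies below the horizontal line.

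The 13 Agrp-low cells with neither receptor were a mixed set. Their *Pomc* ran from 4.37 to 16.06 log2RPM, and 6 of them had under 6000 expressed genes. In 4 of them *Pomc* was above 14 log2RPM, with *Stmn2*, a neuronal microtubule regulator, between 2.37 and 8.01 log2RPM and 4603 to 5736 expressed genes. The median of *Stmn2* over Agrp-low cells was 9.64 log2RPM. Median depth was 8.27 M reads in the 13 cells, against 8.17 M in Agrp-low cells with both receptors. The part of these features in the missing receptors was not tested.

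The 2 receptors also differed in how they went with *Pomc*, the peptide precursor gene by whose reporter the cells were sorted. Across *Pomc* bins of the Agrp-low cells, *Prlr* was expressed in 23 of 28 cells below 6 log2RPM, in 31 of 38 cells from 6 to 10 log2RPM and in 43 of 49 cells at 10 log2RPM or more. Median *Prlr* was 6.99, 7.81 and 7.26 log2RPM in the 3 bins, and the 3 shares of 82.1%, 81.6% and 87.8% had overlapping intervals. Of the 6 cells without *Prlr* in the highest bin, 4 had only 4603 to 5736 expressed genes. Without the cells under 6000 genes, mean *Pomc* was 9.64 log2RPM in Agrp-low cells with *Prlr* and 6.65 log2RPM in the 11 without. The bins were not recomputed without those cells.

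*Ghr* was expressed in 5 of 28 cells of the lowest *Pomc* bin (17.9%, interval 6.06% to 36.9%), in 10 of 38 of the middle bin (26.3%, interval 13.4% to 43.1%) and in 33 of 49 of the highest bin (67.3%, interval 52.5% to 80%). Its median was 0.94, 1.04 and 3.77 log2RPM. The highest bin stood apart from the other two, which overlapped. All 10 Agrp-low cells with *Ghr* at 100 RPM or more were in the highest bin. Joint presence followed, with both receptors in 3 of 28, 8 of 38 and 32 of 49 cells. Spearman's rho with *Pomc* over the Agrp-low cells was 0.06 for *Prlr* and 0.32 for *Ghr*. By cell numbers 1 to 66, 67 to 98 and 99 onward of the labels it was 0.40, 0.14 and -0.31 for *Prlr*, so that its sign differed between ranges, and 0.61, 0.28 and 0.39 for *Ghr*. Within the 49 cells of the highest bin the rho of *Ghr* with *Pomc* was 0.04. *Ghr* was in 9 of 10, 9 of 15 and 15 of 24 of those high-*Pomc* cells in the 3 ranges. Median depth was 8.20, 7.12 and 8.17 M reads in the 3 *Pomc* bins.

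**Figure D3:**
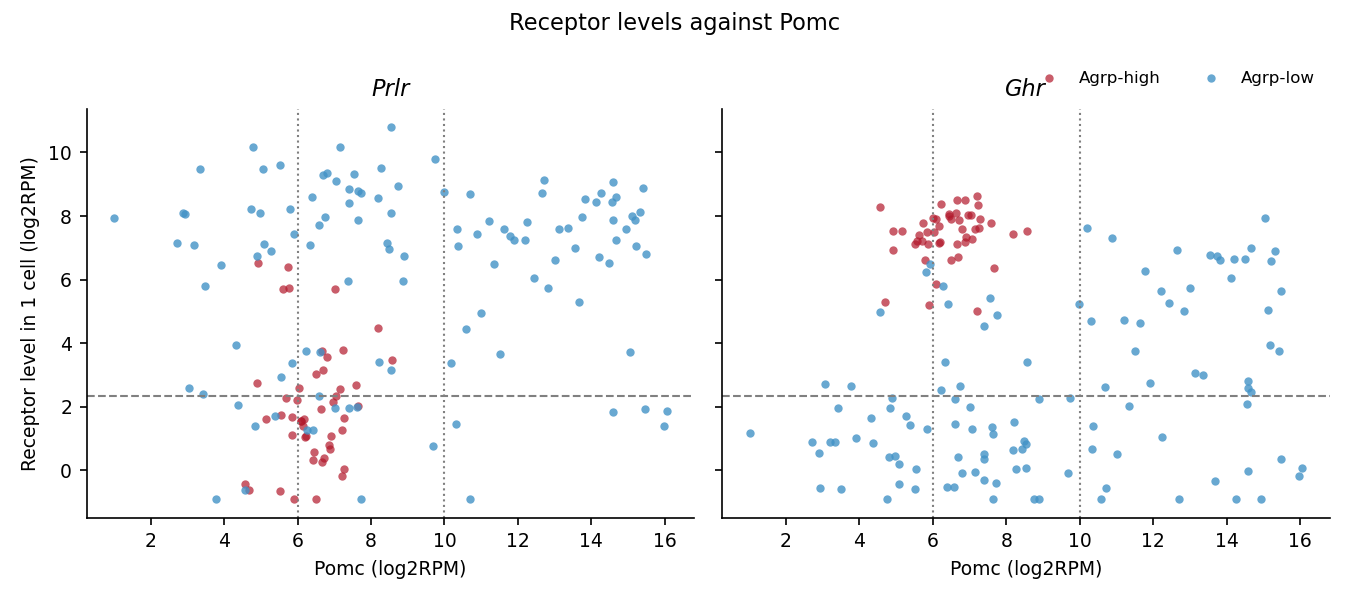
Level of *Prlr* (left) and *Ghr* (right) in log2RPM against *Pomc* in log2RPM, 1 point per cell, coloured by class. Dotted lines mark the *Pomc* bins at 6 and 10 log2RPM and the dashed line 5 RPM. In Agrp-low cells *Ghr* is expressed in 5 of 28, 10 of 38 and 33 of 49 cells from the lowest to the highest bin, and the 48 Agrp-high cells sit in a band at *Pomc* 4.56 to 8.57 log2RPM.

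*Prlr* in Agrp-high cells differed by cell number. It was expressed in 15 of 32 Agrp-high cells numbered 1 to 66 (46.9%, interval 29.1% to 65.3%), in 0 of 5 numbered 67 to 98, which allows up to 60%, and in 2 of 11 numbered 99 onward (18.2%, interval 2.28% to 51.8%). The median level was 2.25, -0.64 and 1.28 log2RPM in these ranges. In Agrp-low cells the shares were 29 of 34, 22 of 27 and 46 of 54, which differ little. *Ghr* was in every Agrp-high cell of each range and in 15 of 34, 12 of 27 and 21 of 54 Agrp-low cells.

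The low values of another gene moved in the same way. Median *Agrp* in the Agrp-low cells was 5.13 log2RPM in cells 1 to 66, 1.43 log2RPM in cells 67 to 98 and 2.91 log2RPM in cells 99 onward. The limits of the ranges were set with such values known, and the labels do not say what the cell numbers stand for. Whether the low *Prlr* values come from the same cells or from reads of other libraries was not tested. The 17 Agrp-high cells with *Prlr* had a median depth of 5.13 M reads, against 8.92 M in the 31 without it.

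**Figure D4:**
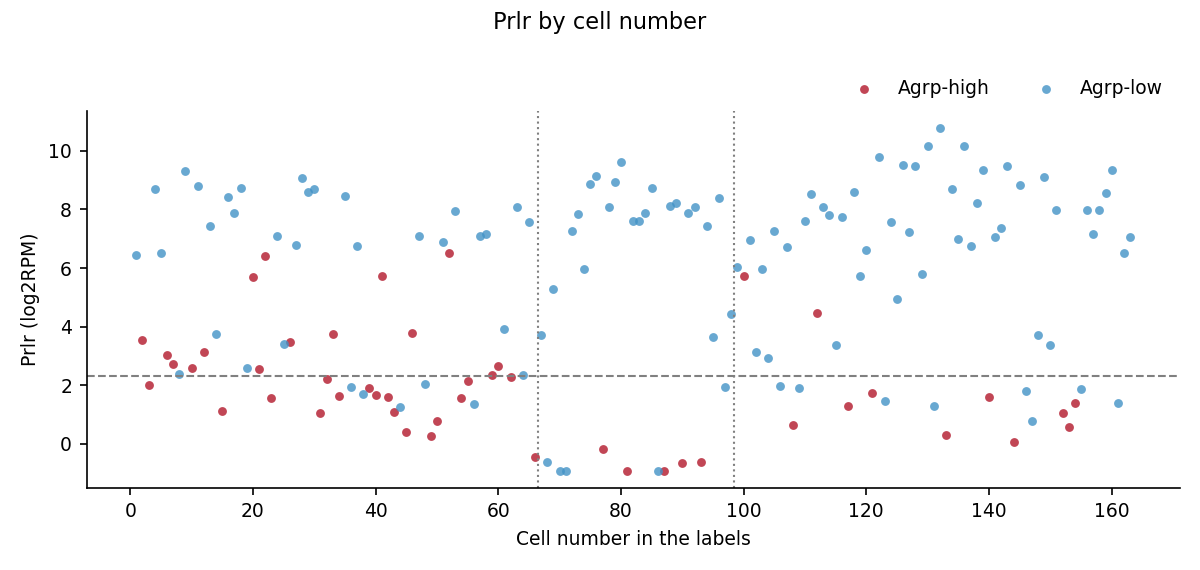
*Prlr* in log2RPM (vertical axis) against the cell number of the labels (horizontal axis), 1 point per cell, coloured by class. Dotted lines separate cells 1 to 66, 67 to 98 and 99 onward, and the dashed line is 5 RPM. The Agrp-high cells above the line are 15 of 32, 0 of 5 and 2 of 11 in the 3 ranges.

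The other genes of the pathway were described by class, from lists chosen with earlier results of these data known. Among hormones and the regulators of their release, *Gh* and *Ghrh* were not among the genes analysed, and prolactin itself (*Prl*) was at 5 RPM in 6.25% of Agrp-high and 18.3% of Agrp-low cells. *Prl* is also one of the pituitary markers, and the paper sequenced pituitary cells as well. Whether *Prl* reads come from the same cells or from other libraries was not tested. The ghrelin receptor *Ghsr*, which releases growth hormone in the pituitary, was expressed in 60.4% of Agrp-high and 6.96% of Agrp-low cells. *Sst*, the gene of somatostatin, which inhibits growth hormone release, was expressed in 70.8% of Agrp-high and 36.5% of Agrp-low cells.

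Of 11 relatives of the 2 receptors that could be compared, 7 were higher and 1 was lower in Agrp-high cells, with a median difference of 1.06, beside 9.22% higher, 3.14% lower and a median of 0.21 over all genes. Without the cells under 6000 genes 6 of 12 relatives were higher and 1 lower, beside 6.85% higher and 4.37% lower over all genes. The leptin receptor *Lepr* was expressed in 68.8% of Agrp-high and 17.4% of Agrp-low cells, at means of 3.23 ± 2.51 and 0.52 ± 2.02 log2RPM. The shared signal subunit *Il6st* (gp130) was expressed in 79.2% of Agrp-high and 50.4% of Agrp-low cells, a difference of 1.53. *Il2rg*, the common chain of the interleukin receptors, was expressed in 18 of 48 Agrp-high cells and in 0% of Agrp-low cells, which allows up to 2.61%. The subunit *Il13ra1* was the one that was lower, by a difference of -1.03.

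Among 15 kinases and STATs, 4 were higher and 1 lower in Agrp-high cells, with a median of 0.15, beside 9.22% higher and 3.14% lower over all genes. Among them *Stat3*, *Stat2* and *Stat6* differed by 1.68, 1.43 and 1.32. *Jak2*, the kinase of both receptors, was lower by little more than the limit of 1, a call lost without the cells under 6000 genes, and was expressed in 29.2% of Agrp-high and 46.96% of Agrp-low cells. *Stat5b*, their main effector, was at 4.63 ± 2.14 log2RPM in Agrp-high and 4.48 ± 2.56 log2RPM in Agrp-low cells. *Stat5a* was expressed in 20.8% of Agrp-high and 21.7% of Agrp-low cells.

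Of 14 feedback inhibitors, 5 were higher and 0 lower in Agrp-high cells, with a median of 0.61, beside 9.22% higher over all genes. Without the cells under 6000 genes 4 were higher, *Pias1* being the one lost, beside 6.85% higher over all genes. *Socs2*, the inhibitor best known for restraining growth hormone signalling, was expressed in 93.8% of Agrp-high and 60.9% of Agrp-low cells, at means of 5.64 ± 1.63 and 3.53 ± 2.78 log2RPM. *Cish* was expressed in 54.2% of Agrp-high and 22.6% of Agrp-low cells. *Socs1* differed by 1.78, the phosphatase *Ptpn2* by 1.07 and *Socs3* by 0.52, below the limit of 1. Among 10 receptors of steroid and related hormones, 3 were higher and 3 lower, beside 9.22% and 3.14% over all genes. The mineralocorticoid receptor *Nr3c2* and the glucocorticoid receptor *Nr3c1* differed by 2.21 and 1.60, and the oestrogen receptor *Esr1* and the progesterone receptor *Pgr* by -3.63 and -1.62.

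Cells with and without *Prlr* were then set side by side within the Agrp-low class. The 97 cells with *Prlr* and the 18 without differed by 1 or more in 1307 genes that were higher (11.5% of 11325) and 611 that were lower (5.4%), with a median difference of 0.15. These counts turned on cells with few genes. Without the cells under 6000 genes, which took 21 of the 97 and 7 of the 18, 811 genes were higher and 1138 lower and the median was -0.04. With 18 or 11 cells on 1 side, such counts are wide.

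Of the 8 genes listed for kisspeptin neurons 6 were measured, and 4 of these were higher and 0 lower in cells with *Prlr* (median 2.08), beside 11.5% higher over all genes. Of 10 genes of AgRP neurons 5 were higher and 0 lower (median 0.98), among them *Npy1r* (3.01) and *Npy2r* (1.65). Between the *Agrp* classes *Npy1r* was the 1 of 13 such genes that was lower in Agrp-high cells, by a difference of -2.16. *Pdyn*, the dynorphin precursor, was expressed in 73 of 97 cells with *Prlr* and 6 of 18 without, at means of 5.85 ± 3.56 and 2.58 ± 2.92 log2RPM. *Esr1* was expressed in 68 of 97 cells with *Prlr* and 4 of 18 without, at means of 4.55 ± 2.87 and 1.91 ± 2.21 log2RPM. *Tac2*, which encodes neurokinin B and is a defining gene of kisspeptin neurons, differed by 0.74 and was expressed in 29 of 97 cells with *Prlr* and 4 of 18 without. Without the cells under 6000 genes the differences were 4.31 for *Pdyn* and 3.23 for *Esr1*, whereas that of the glutamate transporter *Slc17a6* was 0.72 instead of 1.56 and *Tac2* passed the limit.

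Of 11 genes of POMC neurons, 6 were higher in cells with *Prlr*, among them the transcription factors *Isl1* (2.06), *Tbx3* (2.27) and *Nkx2-1* (1.46). Beside this list and the next ones, 11.5% of all genes were higher and 5.4% lower. Without the cells under 6000 genes these shares were 7.14% and 10.02%. Without the cells under 6000 genes *Nkx2-1* was within the limit, *Pomc* was among the 6 that were higher and *Cartpt* was lower, at -1.36. *Pomc* itself was at 9.30 ± 3.93 log2RPM in cells with *Prlr* and 8.79 ± 4.19 log2RPM in cells without. The difference of *Pomc* was then 2.99, the side without *Prlr* then holding 11 cells. Of the 12 pan-neuronal genes 5 were higher, *Stmn2* by 1.54, and 0 of 12 once the cells under 6000 genes were left out. Of 13 immediate early genes, the fast responders to cell stimulation, 10 were lower, *Fos* by a difference of -2.12 and *Jun* by -1.91. Without those cells 2 of 11 were lower and 1, *Dusp1*, was higher.

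Genes downstream of the receptor were counted in the same cells, beside 11.5% higher and 5.4% lower over all genes. Of 15 kinases and STATs, 0 were higher and 2 lower, *Stat3* (-1.23) and the insulin receptor substrate *Irs2* (-1.19). Without the cells under 6000 genes both were within the limit, *Stat3* at -0.58. *Stat5b* was then the 1 lower member of 16, beside 10.02% lower over all genes. In all cells *Jak2* differed by 0.21 and *Stat5b* by -0.02. Of 14 feedback inhibitors 1 was higher and 1 lower: *Socs2* differed by 1.39, or 1.31 without the cells under 6000 genes, and *Ptpn2* by -1.98. Of 11 relatives only *Cntfr*, the receptor subunit of ciliary neurotrophic factor, passed the limit, at -1.46.

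The same was done for *Ghr* in the Agrp-low class, which held 48 cells with it and 67 without. Here 473 genes were higher (4.18% of 11325) and 0.892% lower, with a median difference of 0.13. Cells with *Ghr* had more expressed genes, with medians of 7183.5 and 6750, and a similar depth, with medians of 8.28 and 7.84 M reads. Without cells under 6000 genes 439 genes were higher and 432 lower, and without cells holding 3 or more markers 1.40% were lower.

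The peptide precursor genes *Cartpt*, *Pomc* and *Pdyn* were higher in the cells with *Ghr*, and *Sst* and *Tac2* were lower, each by a difference of -1.32. *Cartpt*, which encodes the anorexigenic peptide CART, stood at 9.07 ± 3.46 log2RPM in 48 cells with *Ghr* and 5.39 ± 2.86 log2RPM in 67 cells without. *Pomc* stood at 11.15 ± 3.63 log2RPM with *Ghr* and 7.83 ± 3.60 log2RPM without. *Pdyn* differed by 2.64. Without cells under 6000 genes these 3 differences were 4.14, 4.78 and 2.67. Of 11 genes of POMC neurons 5 were higher and 0 lower, with a median of 0.99, beside 4.18% higher over all genes. The 5 Agrp-low cells with *Ghr* only had *Cartpt* between 8.32 and 13.84 log2RPM and *Pomc* between 3.78 and 10.32 log2RPM.

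Of 10 genes of AgRP neurons, 5 were higher and 0 lower in Agrp-low cells with *Ghr* (median 0.89), beside 4.18% higher over all genes. Without the cells under 6000 genes 4 were higher, beside 3.86% over all genes. The split by *Prlr* gave the same count of 5 of 10. The protease inhibitor *Serpina3n* was at 6.06 ± 2.94 log2RPM with *Ghr* and 3.48 ± 2.54 log2RPM without, the neuropeptide Y receptor *Npy2r* differed by 1.73 and the activin receptor *Acvr1c* by 1.34. *Agrp* itself was at 3.16 ± 2.32 log2RPM with *Ghr* and 3.11 ± 1.79 log2RPM without.

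Of 11 receptor relatives, 4 were higher in cells with *Ghr* and 0 lower, beside 4.18% and 0.892% over all genes: *Il6st* (1.53), *Lepr* (1.39), *Csf2ra* (1.38) and *Il13ra1* (1.20). *Lepr* was expressed in 15 of 48 cells with *Ghr* and 5 of 67 without. Of 15 kinases and STATs 2 were higher, among them *Stat3*, and 1 was lower, *Stat5a* (-1.05), while none of 14 feedback inhibitors passed the limit, *Socs2* standing at 0.87. *Syt1*, the calcium sensor of synaptic vesicles, was the lowest of all genes at -2.16. Of 3 genes of the tanycyte, ependymal and choroid list that could be compared, 2 were higher and 0 lower, beside 4.18% and 0.892% over all genes. These were *Vim* and *Ttr*, by 2.40 and 1.28, while *Rax* was within the limit. The paper also names *Ttr* among genes that characterize its cluster of POMC neurons with the highest *Pomc* and *Cartpt*. The summed level of that list, of which 5 of 8 genes were measured, was 0.0 to 1444.0 RPM with *Ghr* (median 45.6) and 0.0 to 1224.3 RPM without (median 1.7). The part of ventricular cells in the result was not tested.

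Genes were also ranked by how closely their level followed that of each receptor over cells, among genes expressed in at least 20% of the cells used. All cells share the assay, and depth and gene number differ between them, so the correlations are descriptions. Over the Agrp-low cells, *Prlr* was followed most closely by *Tmem35*, a chaperone of nicotinic receptors (Spearman's rho 0.52), *Npy1r*, a receptor of neuropeptide Y (0.47), the ribosomal protein gene *Rpl23* (0.46) and *Lcorl* (0.45). *Esr1* (0.42), the transcriptional coactivator gene *Cited1* (0.41), the kinase gene *Stk32a* (0.41) and *1500009L16Rik* (0.41) came next. Among all 9924 genes the middle 90% lay between -0.17 and 0.21. *Tmem35* was at 7.82 ± 2.80 log2RPM in cells with *Prlr* and 3.94 ± 2.92 log2RPM in cells without. The lowest were the nuclear factor I genes *Nfib* (-0.46) and *Nfix* (-0.40). *Esr1* held 0.50, 0.18 and 0.49 in cells 1 to 66, 67 to 98 and 99 onward, and *Tmem35* 0.37, 0.51 and 0.56.

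Over the same cells *Ghr* was followed by *Serpina3n* (0.56), *Acvr1c* (0.43), the RNA-binding protein gene *Fmr1* (0.43) and *Nppc*, which encodes C-type natriuretic peptide (0.41). *Vim* (0.41), *Pomt1* (0.41), *Arhgap18* (0.40) and *Cartpt* (0.40) followed, and *Vapa*, a tether of the endoplasmic reticulum, was lowest (-0.44). *Ghr* itself had a rho of 0.35 with the number of expressed genes, and given that number the rho of *Serpina3n* was 0.50. *Cartpt* held 0.47, 0.63 and 0.50 in the 3 ranges of cell numbers. The middle 90% of genes lay between -0.14 and 0.23.

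In the 48 Agrp-high cells, where *Ghr* varied little, other genes led: *Tcaim* (0.60), *Dmxl1* (0.59), *Acap2* (0.57), the microtubule gene *Dcx* (0.57), *Phactr3* (0.54), the dynamin *Dnm3*, the semaphorin receptor *Plxna4* and the NMDA receptor subunit *Grin3a* (0.52 each). With 48 cells the middle 90% of genes was wider, from -0.24 to 0.30. *Agrp* had a rho of 0.18 with *Ghr* in these cells.

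Over all cells the rankings mirrored the 2 classes. *Ghr* went with *Serpina3n* (0.79), *Acvr1c* (0.71), *Npy2r* (0.70), *Agrp* (0.67) and *Npy* (0.66), and *Prlr* (-0.43) was among its lowest genes. *Prlr* went with *Tmem35* (0.66), *Esr1* (0.61), the protocadherin *Pcdh19* (0.57) and the teneurin *Tenm1* (0.53), and *Npy* (-0.55) and *Agrp* (-0.54) were among its 4 lowest.

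**Figure D5:**
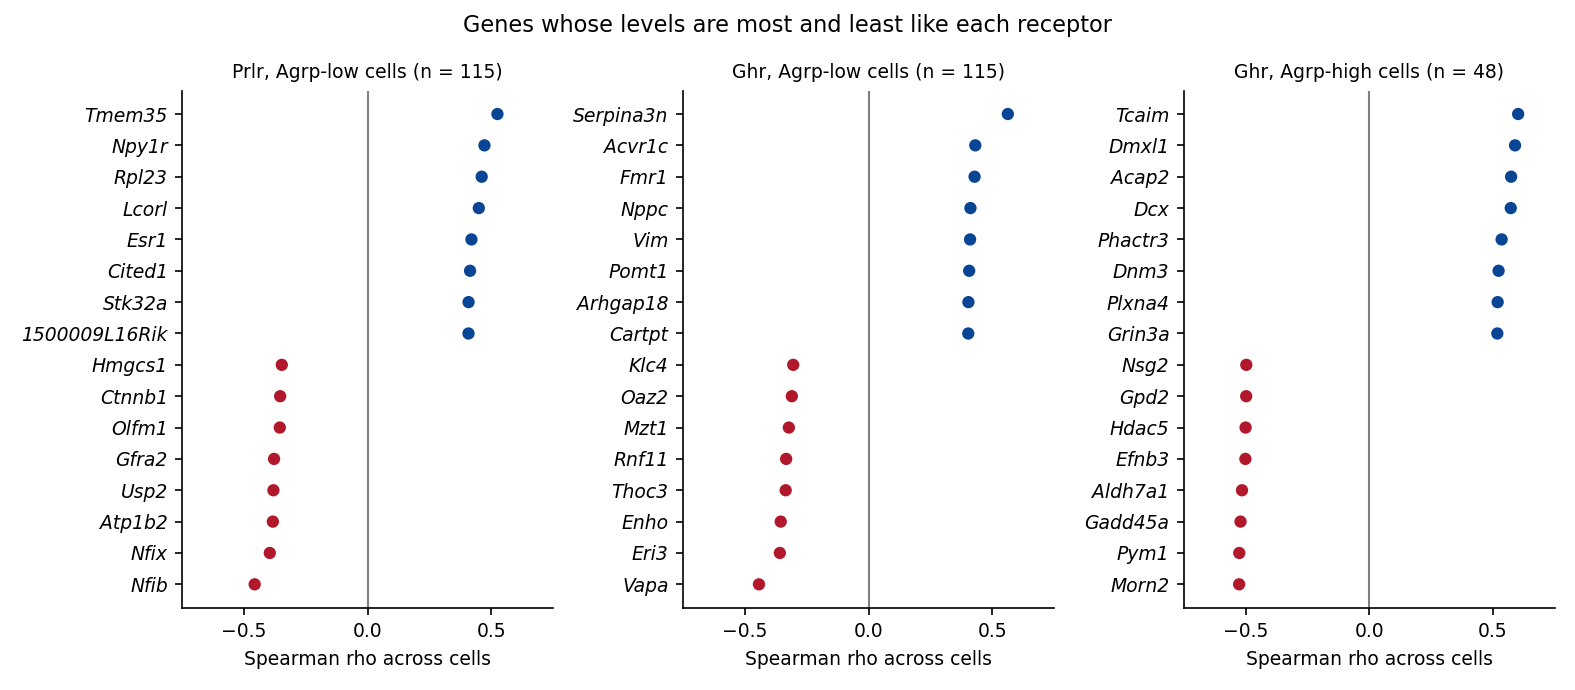
Spearman's rho across cells (horizontal axis) of the 8 genes most and the 8 genes least like *Prlr* in Agrp-low cells, *Ghr* in Agrp-low cells and *Ghr* in 48 Agrp-high cells, 1 point per gene, blue for the highest and red for the lowest. *Tmem35* leads for *Prlr* (0.52), *Serpina3n* for *Ghr* in Agrp-low cells (0.56) and *Tcaim* for *Ghr* in Agrp-high cells (0.60).

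Within the Agrp-high class *Prlr* was followed by another set of genes. Over these 48 cells, in a ranking added after the values were seen, the adhesion genes *Olfm3* (0.83), *Nxph1* (0.71) and *Tenm1* (0.66) were highest, and *Slc17a6* was expressed in 7 of 17 cells with *Prlr* and 6 of 31 without. *Olfm3* was expressed in 8 of 17 Agrp-high cells with *Prlr* and 3 of 31 without, and in 67.8% of Agrp-low cells. *Tenm1* was expressed in 8 of 17 with *Prlr* and 5 of 31 without, and in 80.9% of Agrp-low cells. *Ghr* hardly differed, with medians of 7.54 log2RPM in the 17 cells and 7.51 log2RPM in the 31. Whether these cells express genes of both classes or hold reads of other cells was not tested.

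Reads of the neighbouring gene *Gm21973*, whose annotated span overlaps that of *Prlr*, were few. It reached 5 RPM in 15 cells, 1 Agrp-high and 14 Agrp-low, each of which expressed *Prlr*, and its highest level was 3.77 log2RPM. Reads that fall in both genes cannot be told apart from these values.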

How the data were processed

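RNA of 163 single sorted cells was sequenced as 1 library each. Per the labels and the paper, reads were demultiplexed with CASAVA 1.7, aligned to GRCm38 with TopHat2 2.0.11 and counted with Cufflinks 2.2.1. They were normalized with edgeR and limma, whose versions are not given in the sources used here. The paper also reports a correction for batches with these packages and names no batch for any cell. Whether the values used here include that correction was not tested. The authors deposited log2 values, as log2RPM, already filtered to 12187 genes, each at 5 RPM in at least 7 cells. Read numbers came from the spacing of low values, of which 99.3% (1 to 20 reads) were whole to within 0.1. The groups were cells above or below 10 log2RPM of *Agrp*.

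The 2 genes and all gene lists were chosen with earlier results of these data known. Named genes were *Prlr*, *Ghr*, list members as examples, and the 8 highest and 8 lowest by Spearman's rho with each receptor in each cell set. Genes were compared where at 5 RPM in at least 10% of the cells used, and called higher or lower at a difference of mean log2RPM of 1. A gene can pass this filter through 1 side of a comparison alone, and its call then rests in part on the filter. Some members of the lists are not reported here. No test fits 1 sample. The alternatives tried were other expression cut-offs (1, 10 or 100 RPM, or at least 1 read), *Agrp* limits of 8 and 11 log2RPM, *Npy* in place of *Agrp*, pseudocounts of 0.1 and 5 RPM, other filters and *Pomc* tertiles, rescaling by 2711 widely expressed genes, thinning to 3.85 M reads, leaving out cells under 6000 genes or with 3 or more markers, and ranges of cell numbers. The difference script was tested on simulated data. Python 3.11.15, numpy 2.4.6, pandas 2.3.3, scipy 1.17.1 and matplotlib 3.10.9 were used.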

Additional observations from a re-analysis of the deposited data

How the results depend on the processing

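In all, 269 shares, mean differences of the 2 receptors, gene shares, correlations and numbers of genes kept were recomputed under alternatives. Of these, 207 stayed within a limit set for their kind, 62 moved and 0 changed sign. The limit was the first 95% interval for shares of cells and the SD over Agrp-low cells for mean differences. For gene counts it was a fixed ratio, for correlations a fixed distance and for genes kept a fixed number. Only mean differences and correlations could change sign. Other values did change sign without the cells under 6000 genes: the median difference over all genes for *Prlr* was -0.04 instead of 0.15, and for *Prlr* the differences, none past 1, were -0.32 instead of 0.88 for *Serpina3n*, -0.36 instead of 0.13 for *Lepr* and 0.26 instead of -0.34 for *Il6st*. Between the *Agrp* classes they were -0.11 instead of 0.29 for *Cartpt* and -0.61 instead of 0.02 for *Tbx3*. Leaving out cells, another *Agrp* limit, *Npy* in place of *Agrp* and thinning to 3.85 M reads moved no share of cells with either receptor. The thinning left out 17 cells with fewer reads, 3 Agrp-high and 14 Agrp-low. Rescaling was applied to mean differences and gene counts and not to shares of cells. Cell shares turned on the cut-off and on the ranges of cell numbers, and depth limits them near 5 RPM, which is 6.56 reads in the shallowest cell. No paired analysis was possible because each cell is a sample of its own and no result comes from a test.

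At 1 RPM *Prlr* was in 87.5% of Agrp-high and 96.5% of Agrp-low cells, and *Ghr* in 80% of Agrp-low cells. Both receptors were then in 87.5% of Agrp-high and 78.3% of Agrp-low cells, *Prlr* only in 18.3% and neither in 1.74% of Agrp-low cells. At 10 RPM *Prlr*, and thus both, was in 20.8% of Agrp-high cells and *Ghr* in 32.2% of Agrp-low cells. Counting any value above the lowest, *Prlr*, and thus both, was in 95.8% of Agrp-high cells, and in Agrp-low cells *Prlr* was in 97.4%, *Ghr* in 93%, both in 90.4%, *Prlr* only in 6.96% and neither in 0%. At 100 RPM, a cut-off added after seeing the data, *Prlr* and both were in 0% and *Ghr* in 85.4% of Agrp-high cells, and in Agrp-low cells *Prlr* was in 62.6%, *Ghr* in 8.70%, both in 6.09%, *Prlr* only in 56.5% and neither in 34.8%. *Prlr* and both were in 0% of Agrp-high cells numbered 67 to 98 and in 18.2% of those numbered 99 onward.

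By *Pomc* bin, *Ghr* at 1 RPM was in 82.1%, 73.7% and 83.7% of cells from low to high, with no order by *Pomc* at that cut-off. *Prlr* at 1 RPM was in 97.4% of the middle and 97.96% of the highest bin. At 100 RPM *Prlr* was in 57.1%, 63.2% and 65.3%, and *Ghr* in 0%, 0% and 20.4%. In the highest bin, cells 1 to 66 gave 100% for *Prlr* and 90% for *Ghr*. In the lowest bin, cells 67 to 98 gave 60% for *Prlr* and 40% for *Ghr*, and cells 99 onward gave 100% for *Prlr*.

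With cells divided at 1 RPM, 34.4% of genes were higher and 13.8% lower in Agrp-low cells with *Prlr*, set against 4 cells, and 16.2% were higher with *Ghr*. Without cells under 6000 genes, 7.14% (811 genes) were higher and 10.02% (1138) lower with *Prlr* and 3.802% (432) lower with *Ghr*. Without cells holding 3 or more markers, 1.40% were lower with *Ghr*. Both of these were added after seeing the data. Of the 8 genes most like each receptor, Pearson correlation kept 5 for *Prlr* and 5 for *Ghr* in Agrp-low cells and 2 for *Ghr* in Agrp-high cells, and the mean over ranges of cell numbers kept 5, 2 and 2. The cause of these changes was not tested.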
